A study of Mus musculus with 12 samples.

Results

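The nuclear genes of respiratory complexes II to V were compared between Med30 knockout and control mouse hearts. The genes were chosen by symbol, as Sdha to Sdhd, Cyc1 and all symbols that begin with Uqcr, Cox followed by a digit, or Atp5. The rule found 56 of the 20775 genes listed at each stage. Of these, 4 belong to complex II, 9 to complex III, 27 to complex IV and 16 to complex V. The rule used no measured value. The genes lie on 18 chromosomes (GRCm38).

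Complexes II, III and IV pass electrons from succinate and ubiquinol to oxygen in the inner mitochondrial membrane, and complexes III and IV pump protons as they do so. Complex V, the ATP synthase, lets the protons back and makes ATP. The heart holds more of these complexes than most tissues, and it replaces several ubiquitous subunits of complex IV with heart and muscle isoforms as it matures. All subunits of complex II and most of those of the other complexes are encoded in the nucleus. The rest are encoded in mitochondrial DNA, and none of the 6 mitochondrially encoded genes of complexes III to V that were looked for was listed at either stage.

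The 12 samples fell into 4 groups of 3, all from C57BL/6 mice. At the embryonic stage E10.5, whole hearts of cKO embryos, which carried Tnnt-Cre with both Med30 alleles floxed, were compared with hearts of Ctrl littermates. Tnnt-Cre is driven by a troponin T promoter and recombines in cardiomyocytes. In the adult, cardiomyocytes were isolated 4 weeks after tamoxifen from icKO mice, which carried αMHC-MerCreMer with both Med30 alleles floxed, and from Ctrl mice given the same tamoxifen, with an age of 3 months in the labels. αMHC-MerCreMer is a tamoxifen-inducible Cre that is also active in cardiomyocytes. Ctrl animals at both stages carried the floxed alleles and no Cre by the study's methods, while the labels call them wild type, so an effect of Cre itself cannot be told apart from loss of Med30. In the floxed allele, loxP sites lie on either side of the first exon, which Cre then removes. The line came from 1 embryonic stem cell clone. How many embryos or mice gave 1 sample is not stated in the sources used here, so p-values measure the spread between these samples. Since the stages differ in age, Cre line and kind of sample, these cannot be told apart when stages are compared. In bulk RNA, fewer cardiomyocytes and less RNA per cardiomyocyte also cannot be told apart.

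Expression was deposited as RPKM, the reads on a transcript scaled to its length and to the reads of the library. The spacing of low RPKM gave a depth of about 11950000 to 20050000 reads per library. Med30, the targeted gene, was at 10.6, 13.3 and 11.3 RPKM in Ctrl and 1.38, 2.02 and 1.004 RPKM in cKO hearts. At 4 weeks it was at 7.66, 7.45 and 7.66 RPKM in Ctrl and 3.81, 3.16 and 1.83 RPKM in icKO cardiomyocytes. At 4 weeks the 20 most abundant genes took 24.2% to 24.8% of the summed RPKM in Ctrl and 10.7% to 12.2% in icKO samples, and 5 of these 20 were genes of complexes II to V. Over all genes tested, the median log2 fold change (knockout minus Ctrl) was 0.57 at 4 weeks and -0.13 at E10.5. Counts and medians of gene groups at 4 weeks are therefore given as deposited and also after median-ratio scaling, which divides each sample by the median ratio of its genes to their geometric mean and leaves the median of all genes at 0.01. Log2 fold changes of single genes are as deposited unless stated, and at 4 weeks median-ratio scaling lowered that of each of the genes tested by 0.52 to 0.57.

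Marker genes of other cells moved with the 4-week groups. The summed RPKM of 6 cardiomyocyte markers was 18914 to 20116 in Ctrl and 6161 to 8042 in icKO samples, and 6 of 6 fell. The sum of 6 fibroblast markers was 4.26 to 7.23 in Ctrl and 50.9 to 69.1 in icKO. The sum of 6 smooth muscle and mural markers was 46.3 to 71.7 in Ctrl and 237 to 376 in icKO. Most of the icKO sum came from Cnn1, whose mean went from 0.167 to 254 RPKM. Acta2 made up most of the Ctrl sum. Its mean went from 48.1 to 35.8 RPKM and it did not pass (adjusted p = 0.16 by limma). The fibroblast markers Col1a1 and Postn had Ctrl means of 0.435 and 0.367 RPKM and icKO means of 11.4 and 24.4 RPKM. Dcn, the highest of the 6 fibroblast markers in Ctrl, went from 3.64 to 8.08 RPKM. More fibroblasts and more RNA of these genes per fibroblast cannot be told apart. The endothelial and erythroid sums overlapped between the 4-week groups, and the macrophage sum was higher in icKO without overlap. At 4 weeks, 4 of 6 fibroblast, 5 of 6 mural, 6 of 6 endothelial and 2 of 6 macrophage markers were tested. Of these, 4, 3, 3 and 2 rose and 0 fell, against 60.6% higher and 18.1% lower over all genes tested. Of 6 erythroid markers, 2 were tested and 0 passed. At E10.5, 0 of 6 cardiomyocyte markers passed the test, though their sum was 4152 to 5437 in Ctrl and 3266 to 3878 in cKO hearts. The mural sum there was 408 to 452 in Ctrl and 557 to 660 in cKO. The macrophage sum was 8.51 to 11.2 in Ctrl and 4.925 to 6.82 in cKO. The fibroblast, endothelial and erythroid sums overlapped between the E10.5 groups. Of 5 mural and 2 macrophage markers tested there, 1 mural marker rose and 1 macrophage marker fell. Over all genes tested at E10.5, 0.864% rose and 3.45% fell. The part of other cells in the results was not tested.

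Promoter sequences were available for 41 of the 56 genes (RefSeq, GRCm38.p6, 250 bases before to 50 after each start). The windows shown first are the 150 bases before the start of genes whose heart and ubiquitous isoforms are compared further on, with each CG dinucleotide in capitals. Cox7a1 and Cox8b are the heart isoforms of subunits 7A and 8, and Cox7a2 and Cox8a are the ubiquitous ones.
Cox7a1 (chr7:30184021-30184170, plus strand): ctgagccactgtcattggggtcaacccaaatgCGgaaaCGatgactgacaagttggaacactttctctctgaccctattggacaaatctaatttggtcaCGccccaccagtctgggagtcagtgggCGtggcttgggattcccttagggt
Cox7a2 (chr9:79759854-79760003, minus strand): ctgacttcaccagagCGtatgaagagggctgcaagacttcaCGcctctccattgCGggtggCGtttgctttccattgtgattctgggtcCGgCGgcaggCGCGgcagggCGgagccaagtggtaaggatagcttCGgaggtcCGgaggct
Cox8b (chr7:140900447-140900596, minus strand): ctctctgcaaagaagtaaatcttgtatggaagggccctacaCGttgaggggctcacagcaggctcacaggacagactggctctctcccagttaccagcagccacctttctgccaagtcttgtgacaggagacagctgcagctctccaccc
Cox8a (chr19:7217617-7217766, minus strand): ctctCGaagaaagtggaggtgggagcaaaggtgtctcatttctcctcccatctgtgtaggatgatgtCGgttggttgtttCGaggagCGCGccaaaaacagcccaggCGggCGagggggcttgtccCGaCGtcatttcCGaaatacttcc

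The Cox7a1 and Cox8b windows held 4 and 1 CG dinucleotides, and those of Cox7a2 and Cox8a held 11 and 10. Over 300 bases, the counts were 7 for Cox7a1, 20 for Cox7a2, 2 for Cox8b and 19 for Cox8a. The median was 19 over the 41 genes and 7 over all 32851 promoters in the table, which also holds promoters of noncoding genes.

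Motifs bound by known regulators of respiratory genes were looked for on both strands of the 300 bases. The NRF1 core CGCATGCG was in 7 of 41 genes (17.1%) against 2.07% of all 27025 gene symbols in the table, where a gene counts if any of its promoters holds the motif (4 of the 41 have more than 1 promoter). The ERR site TCAAGGTCA was in 2 of 41 (4.88%) against 0.466%, in Sdhd and Atp5g3. The ETS site CCGGAAGT was in 8 of 41 (19.5%) against 4.31%. With 1 promoter a gene, the NRF1 core was in 6 and the ETS site in 7 of the 41. A member of the complex V ring, Atp5g3, and a small subunit of complex III, Uqcr11, show where such a motif lies, with the motif in capitals. The ERR site stands as its reverse complement in the first and the ETS site as written above in the second.
Atp5g3 (chr2:73911327-73911476, minus strand): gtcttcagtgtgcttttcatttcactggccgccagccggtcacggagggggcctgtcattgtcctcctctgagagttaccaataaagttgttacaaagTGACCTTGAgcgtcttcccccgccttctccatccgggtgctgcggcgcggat
Uqcr11 (chr10:80406822-80406971, minus strand): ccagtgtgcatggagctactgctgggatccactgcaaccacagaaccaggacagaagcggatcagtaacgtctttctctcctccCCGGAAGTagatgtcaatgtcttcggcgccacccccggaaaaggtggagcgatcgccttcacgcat

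A motif match is a description of the sequence and not a measured binding site. The NRF1 core and the ETS site themselves hold CG dinucleotides. The median CG count was 19 over the 41 genes and 7 over all promoters, and the motif shares were not adjusted for this. The 7 genes with the NRF1 core were Uqcrc1, Uqcr11, Cox6a1, Atp5g2, Atp5j, Atp5k and Atp5l. The 8 with the ETS site were Uqcrh, Uqcr11, Cox8a, Cox10, Cox14, Cox15, Cox16 and Atp5h.

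Together the 56 genes took 8.72% to 8.86% of the summed RPKM in 4-week Ctrl samples and 6.71% to 7.17% in icKO samples, so the groups did not overlap. At E10.5 they took 2.74% to 3.22% in Ctrl and 2.720% to 2.799% in cKO hearts, where the groups overlapped.

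A gene was tested where its mean RPKM over the 6 samples of a stage was above 1, and it was called at an adjusted p under 0.05 by limma, with Benjamini-Hochberg adjustment over all genes tested. In adult cardiomyocytes, 52 of the 56 genes were tested. Of these, 31 fell, 6 rose and 15 did not pass. Over all 9517 genes tested, 18.1% fell and 60.6% rose. The median log2 fold change was -0.27 over the 52 genes and 0.57 over all genes. After median-ratio scaling, 47 of the 52 fell and 1 rose, against 34.6% lower and 33.6% higher over all genes, and the median was -0.84 against 0.01. All 3 icKO samples were below all 3 Ctrl samples in 34 of the 52 (18.9% over all genes) and above them in 8 (62.0% over all genes). With the study's further limit of a log2 fold change beyond 1, 4 of the 52 fell (8.45% over all genes) and 1 rose (28.0% over all genes). At this limit the study, which used DESeq2, reported more genes lower than higher, the opposite balance to the fit as deposited. Under median-ratio scaling 16 of the 52 fell beyond 1 (15.9% over all genes). The firmness of the 31 lower calls varied. Quantile normalization, which gives all samples the same distribution of values, kept 20 of them. Under it Sdhc, Uqcrc2, Uqcrfs1, Cox5a and Cox5b did not pass, and Cox4i1, Atp5b, Atp5h, Atp5j, Atp5j2 and Atp5o changed sign. In all, 18 of the 31 kept a lower call under every alternative run at this stage. Of the 4 genes that were not tested, Cox4i2, Cox6b2, Cox7b2 and Cox8c, no sample was above 0.894 RPKM.

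**Figure D1:**
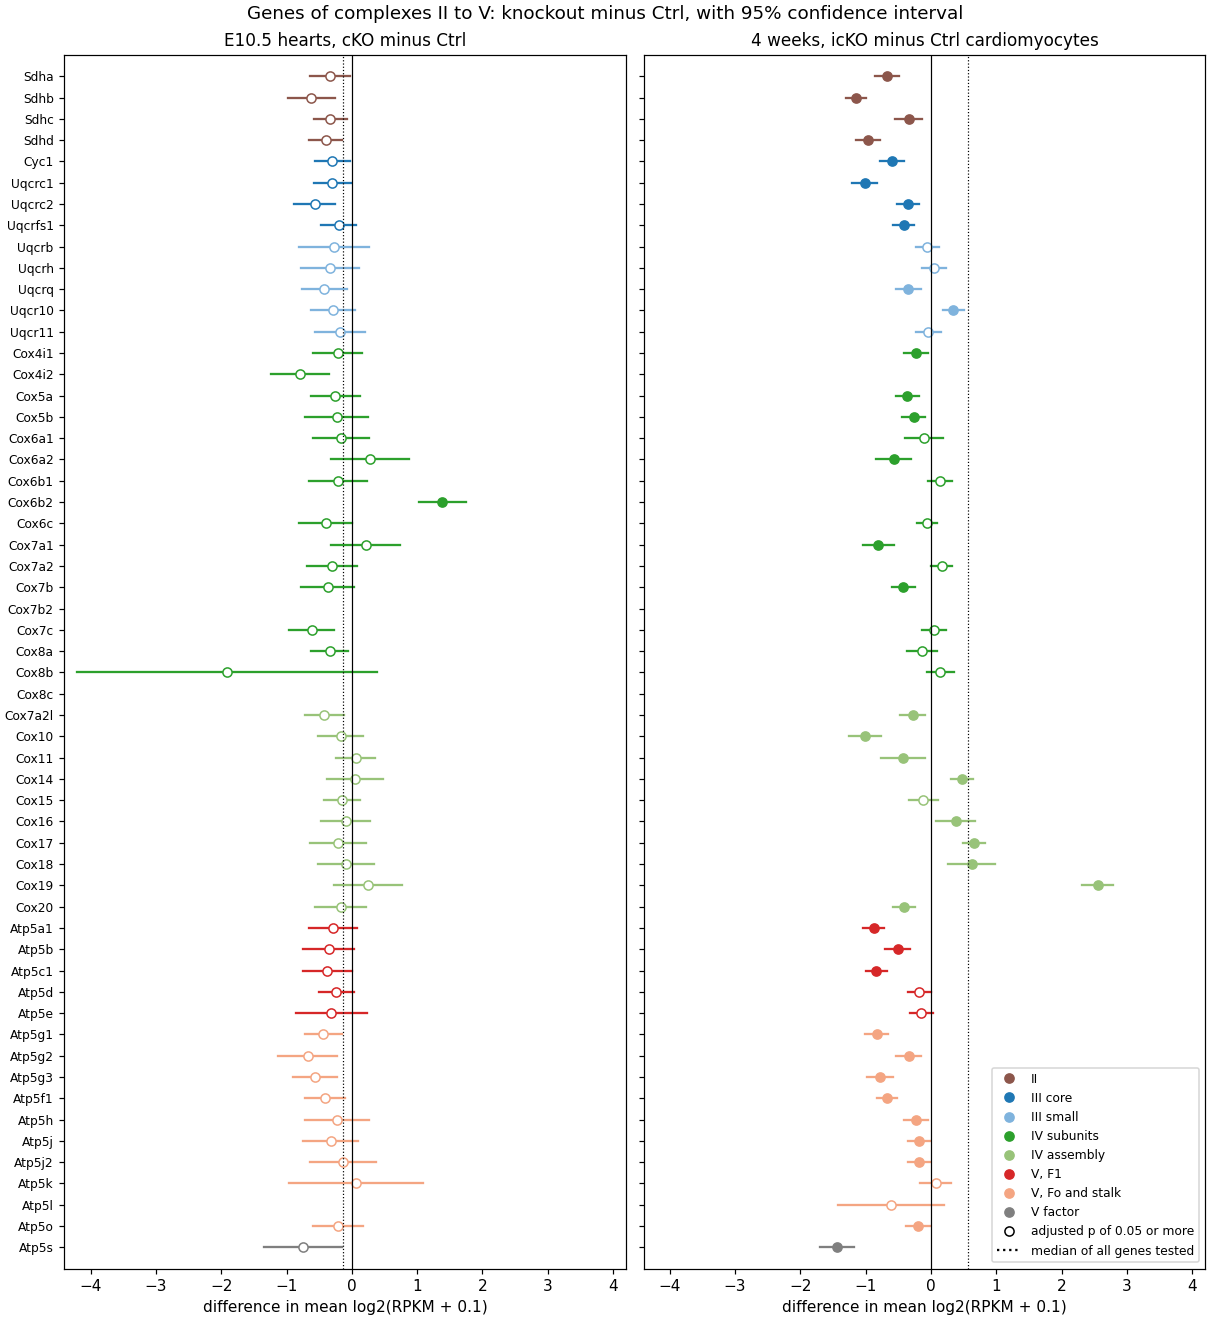
Log2 difference of mean log2(RPKM + 0.1), knockout minus Ctrl, for each gene tested (points, with the 95% confidence interval as a line) in E10.5 hearts on the left and 4-week cardiomyocytes on the right, 3 samples a group. Filled points have an adjusted p under 0.05, colours mark the complex or class, and the dotted line is the median of all genes tested (-0.13 and 0.57). Most points at 4 weeks lie left of 0 and nearly all left of the dotted line, with Cox19 far to the right, and at E10.5 only Cox6b2 is filled.

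Complex II, succinate dehydrogenase, links the citric acid cycle to the respiratory chain. All 4 of its genes fell at 4 weeks as deposited (18.1% over all genes). Their median log2 fold change was -0.82, and -1.39 under median-ratio scaling. Sdhb, the iron-sulfur subunit, was at 390.1, 399 and 383 RPKM in Ctrl and 172, 180.5 and 178 RPKM in icKO. The groups stood well apart, and its log2 fold change was -1.15 ± 0.07 (SE), adjusted p = 9.4e-07 (limma). Sdhd, one of the membrane anchors, was at 184, 176 and 165 RPKM in Ctrl and 84.2, 87.2 and 97.6 RPKM in icKO, a log2 fold change of -0.97 ± 0.08. Sdha, the flavoprotein that oxidises succinate, was at 387, 334 and 382 RPKM in Ctrl and 220.4, 237 and 230.1 RPKM in icKO, a log2 fold change of -0.68 ± 0.08. In each of these genes every icKO sample was below every Ctrl sample. Sdhc, the other anchor, changed least, from 269 ± 8.08 to 213 ± 24.3 RPKM (mean ± SD, n = 3), a log2 fold change of -0.34 ± 0.09 with an adjusted p of 0.00729 (limma). Under median-ratio scaling it was -0.91, and under quantile normalization it was -0.13 and did not pass (adjusted p = 0.183 by limma).

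Complex III, the cytochrome bc1 complex, carries electrons from ubiquinol to cytochrome c. Its nuclear genes were read as 4 that encode the core proteins and the redox proteins and 5 that encode small subunits. The 4 larger ones all fell as deposited (18.1% over all genes). Their median log2 fold change was -0.51, and -1.07 under median-ratio scaling. Uqcrc1, core protein 1, was at 437, 473 and 445 RPKM in Ctrl and 206, 241 and 223 RPKM in icKO, a log2 fold change of -1.02 ± 0.08, adjusted p = 4.96e-06 (limma). It fell by 50.6% of the Ctrl mean. Cyc1, cytochrome c1, was at 350.1, 358 and 339.6 RPKM in Ctrl and 209, 239.5 and 245 RPKM in icKO. The groups did not overlap, and its log2 fold change was -0.60 ± 0.08. Uqcrc2, core protein 2, had a log2 fold change of -0.36 ± 0.07, and Uqcrfs1, the Rieske iron-sulfur protein, of -0.42 ± 0.07. Both fell as deposited (adjusted p of 0.00164 and 0.0004 by limma), while under quantile normalization they were at -0.11 and -0.17 and did not pass (adjusted p of 0.155 and 0.0668 by limma).

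The 5 small subunits of complex III had a median log2 fold change of -0.05, and -0.61 under median-ratio scaling. Uqcrq fell, at 185, 170.2 and 165 RPKM in Ctrl and 129, 149.6 and 131 RPKM in icKO, and Uqcr10 rose as deposited, at 381, 371 and 368 RPKM in Ctrl and 468, 501 and 450.2 RPKM in icKO. Under median-ratio scaling Uqcr10 had a log2 fold change of -0.23 and was lower with an adjusted p of 0.016 (limma), so its direction depends on the scaling. Uqcrb, Uqcrh and Uqcr11 did not pass, with log2 fold changes of -0.06, 0.05 and -0.05 as deposited. Under median-ratio scaling all 5 were lower (34.6% over all genes).

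**Figure D2:**
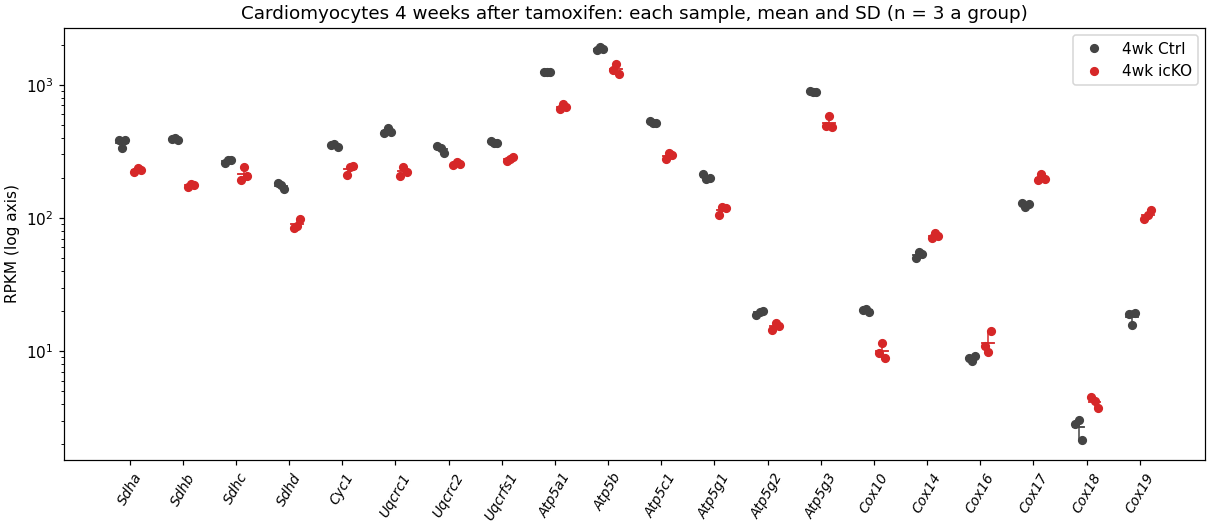
RPKM (log axis) in each cardiomyocyte sample 4 weeks after tamoxifen for 20 genes of complexes II to V, with Ctrl in grey and icKO in red, a horizontal bar for the mean and a vertical bar for the SD (n = 3). The icKO points lie below Ctrl for complex II, the larger subunits of complex III, the catalytic and ring genes of complex V and Cox10. They lie above Ctrl for Cox14, Cox16, Cox17, Cox18 and Cox19. The other assembly genes of complex IV are not shown, of which Cox11, Cox20 and Cox7a2l fell and Cox15 did not pass.

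Complex V makes ATP with its soluble F1 head, while the Fo part holds the proton-driven ring. Of its 16 genes, 12 fell and 0 rose, against 18.1% lower and 60.6% higher over all genes. The median log2 fold change was -0.43, and -0.99 under median-ratio scaling. In the F1 head, Atp5a1, the alpha subunit, was at 1251, 1247 and 1256 RPKM in Ctrl and 656, 716 and 677 RPKM in icKO, a log2 fold change of -0.87 ± 0.07, adjusted p = 5.42e-06 (limma). Atp5b, the catalytic beta subunit and the most abundant of the 56 genes, was at 1820.3, 1909 and 1851 RPKM in Ctrl and 1283, 1425 and 1214 RPKM in icKO, a log2 fold change of -0.51 ± 0.08. Atp5c1, the gamma subunit of the turning shaft, was at 533, 520.1 and 517 RPKM in Ctrl and 275, 309 and 295 RPKM in icKO, a log2 fold change of -0.84 ± 0.07. All 3 genes had groups that stood apart. Quantile normalization gave Atp5b a log2 fold change of 0.72, the opposite direction, and a higher call, while Atp5a1 and Atp5c1 stayed lower. With no filter on RPKM, Atp5b did not pass (adjusted p = 0.419 by limma). The other 2 genes of the head, Atp5d and Atp5e, had log2 fold changes of -0.18 and -0.15 and did not pass (adjusted p of 0.0618 and 0.104 by limma).

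The ring is built from subunit c, whose protein is encoded by 3 genes. Atp5g3, the most abundant of them, was at 905, 889 and 878 RPKM in Ctrl and 493, 585 and 481 RPKM in icKO, a log2 fold change of -0.78 ± 0.09. Atp5g1 was at 215, 197 and 198 RPKM in Ctrl and 106, 119.8 and 118 RPKM in icKO, a log2 fold change of -0.83 ± 0.08. Atp5g2 was the least abundant, at 18.6, 19.8 and 20.2 RPKM in Ctrl and 14.4, 16.3 and 15.3 RPKM in icKO, a log2 fold change of -0.34 ± 0.09. All 3 fell, and in all 3 the groups stood apart. The other Fo and stalk genes with a lower call, Atp5f1, Atp5h, Atp5j, Atp5j2 and Atp5o, had log2 fold changes of -0.67 to -0.18. Atp5f1 stayed lower under quantile normalization, but the other 4 were then at 0.066 to 0.090 with no call, and with no filter on RPKM they did not pass either. Atp5k and Atp5l did not pass. Atp5l was at 0.654 to 2.11 RPKM over the 6 samples, near the threshold of 1 on the mean.

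Atp5s, a factor B-like protein, had the lowest log2 fold change of the 52 genes. It was at 8.72, 8.25 and 7.96 RPKM in Ctrl and 2.78, 2.85 and 3.37 RPKM in icKO. The icKO samples were all under the lowest Ctrl sample, and the log2 fold change was -1.44 ± 0.11, adjusted p = 4.46e-06 (limma). It fell by 63.9% of the Ctrl mean.

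Complex IV, cytochrome c oxidase, hands electrons to oxygen. Of its 17 subunit genes, 13 were tested at 4 weeks, of which 6 fell and 0 rose, with a median log2 fold change of -0.14 as deposited. Over all genes, 18.1% fell and 60.6% rose. Under median-ratio scaling 13 of 13 were lower (34.6% over all genes), with a median of -0.70. Cox4i1, the common isoform of subunit 4, was at 1305, 1289 and 1307 RPKM in Ctrl and 1065, 1202 and 1063 RPKM in icKO. Its groups did not overlap, and its log2 fold change of -0.23 ± 0.08 passed with an adjusted p of 0.0228 (limma). Quantile normalization turned it to 0.68 with a higher call. Its lower call also ended with no filter on RPKM (adjusted p = 0.63 by limma) and in some fits that left out 1 sample. Cox5a and Cox5b, 2 subunits on the matrix side, had log2 fold changes of -0.36 and -0.27 and fell as deposited (adjusted p of 0.00222 and 0.00964 by limma). Under quantile normalization they were at -0.10 and -0.042 and did not pass (adjusted p of 0.169 and 0.545 by limma), and neither passed with no filter on RPKM. Cox7b also fell, with a log2 fold change of -0.42. Cox6b1, Cox6c and Cox7c did not pass, with log2 fold changes of 0.14, -0.06 and 0.05 as deposited, and Cox6b1 and Cox7c changed sign to -0.43 and -0.52 under median-ratio scaling.

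As deposited, the assembly genes of complex IV moved in both directions. Of the 10, 4 fell, 5 rose and 1 did not pass, against 18.1% lower and 60.6% higher over all genes. Under median-ratio scaling 5 were lower and 1 was higher, against 34.6% lower and 33.6% higher over all genes. The median log2 fold change was 0.13 as deposited and -0.43 under median-ratio scaling. Cox19, a small protein that works with the copper delivery route, had the largest change of the 56 genes. It was at 19.0, 15.6 and 19.5 RPKM in Ctrl and 97.8, 104.6 and 115 RPKM in icKO. Every icKO sample was far above every Ctrl sample, the mean ratio was 5.87, and the log2 fold change was 2.55 ± 0.11, adjusted p = 2.64e-07 (limma). Under median-ratio scaling it was 1.99, and Cox19 was the only one of the 52 genes that was still higher. Cox17, the copper chaperone, was at 130.0, 122 and 126 RPKM in Ctrl and 192, 213 and 194 RPKM in icKO, a log2 fold change of 0.66 ± 0.07. Cox18, which inserts a mitochondrially encoded subunit into the membrane, was at 2.85, 3.04 and 2.13 RPKM in Ctrl and 4.51, 4.24 and 3.72 RPKM in icKO, a log2 fold change of 0.63 ± 0.16. Under median-ratio scaling Cox17 and Cox18 had log2 fold changes of 0.10 and 0.08 and did not pass (adjusted p of 0.257 and 0.664 by limma). Cox14 and Cox16, both assembly factors, rose as deposited with log2 fold changes of 0.47 and 0.37, which were -0.09 and -0.19 under median-ratio scaling and did not pass.

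Cox10, which makes the heme O that Cox15 turns into heme A, was at 20.2, 20.6 and 19.7 RPKM in Ctrl and 9.73, 11.5 and 8.87 RPKM in icKO. The groups were well separated, with a log2 fold change of -1.01 ± 0.11 and an adjusted p of 2.63e-05 (limma). Cox15 itself had a log2 fold change of -0.12 and did not pass (adjusted p = 0.299 by limma). Cox11, which delivers copper to the oxidase, Cox20 and Cox7a2l, a factor of respiratory supercomplexes, fell with log2 fold changes of -0.43, -0.41 and -0.28.

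The exons of 19 of the 56 genes overlap another annotated gene in GENCODE M21 (GRCm38), and 4 genes have named pseudogene copies: Atp5c1, Atp5k, Atp5l and Uqcrh. How the authors' counting treated strand and reads shared between copies is not stated in the sources used here, so values of these genes are less certain. Among the genes with the largest changes, Sdhb, Uqcrc1, Cox19 and Atp5s overlap no other exon and have no named pseudogene copy, while Cox10, Cox17 and Atp5a1 overlap another gene. Sdhb lies on chromosome 4 (140961203 to 140979193), Uqcrc1 on chromosome 9 (108936633 to 108949623), Cox19 on chromosome 5 (139336189 to 139351418) and Atp5s on chromosome 12 (69724950 to 69744660), in GRCm38 coordinates of the whole gene.

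Heart isoforms were next set against the ubiquitous isoforms of the same subunit. A ratio within a sample does not depend on the scaling between samples. In adult Ctrl cardiomyocytes, the heart isoform made up 89.9% to 92.8% of the summed RPKM of Cox6a2 and Cox6a1, 78.7% to 80.7% of that of Cox7a1 and Cox7a2, and 90.9% to 91.3% of that of Cox8b and Cox8a. In E10.5 Ctrl hearts the shares were 6.29% to 7.70%, 10.9% to 14.2% and 0.982% to 2.94%.

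The largest change of a ratio at 4 weeks was in subunit 7A. Cox7a1 was at 1004, 816 and 835 RPKM in 4-week Ctrl and 469, 487 and 558 RPKM in icKO samples, a log2 fold change of -0.81 ± 0.10 (adjusted p = 9.74e-05 by limma). Cox7a2 was at 240.0, 221 and 219.6 RPKM in Ctrl and 246, 257 and 259 RPKM in icKO, a log2 fold change of 0.16 ± 0.07 that did not pass (adjusted p = 0.0622 by limma) and was -0.40 under median-ratio scaling. The Cox7a1 share was 65.4% to 68.3% in icKO samples, under every Ctrl sample. The log2 ratio of Cox7a1 to Cox7a2 fell from 1.96 ± 0.09 to 0.99 ± 0.11 (SD, n = 3), a change of -0.97 with an exact two-sided permutation p of 0.1, the smallest that 3 samples against 3 can give.

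Subunit 6A moved the same way by less. Cox6a2 was at 498, 457 and 548 RPKM in Ctrl and 312, 401 and 303 RPKM in icKO, and it fell with a log2 fold change of -0.57 ± 0.12. Cox6a1 was at 56.1, 41.6 and 42.6 RPKM in Ctrl and 43.9, 47.2 and 38.2 RPKM in icKO, where the groups overlapped and the log2 fold change was -0.11 ± 0.13. The log2 ratio changed by -0.46, from 3.43 to 2.96 (exact permutation p = 0.1). Every icKO sample had a lower ratio than every Ctrl sample.

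For subunit 8 neither isoform passed. Cox8b was at 790.0, 731 and 766 RPKM in Ctrl and 753, 930.4 and 849.5 RPKM in icKO, and Cox8a at 77.4, 72.9 and 72.8 RPKM in Ctrl and 58.2, 72.0 and 73.2 RPKM in icKO. As deposited, the log2 fold changes were 0.14 and -0.14 (95% confidence intervals of -0.07 to 0.35 and -0.36 to 0.08). The log2 ratio of Cox8b to Cox8a was higher in every icKO sample, with a change of 0.28 from 3.36 to 3.64 (exact permutation p = 0.1). The 6 ratio tests, 3 pairs at 2 stages, gave adjusted p of 0.15 to 0.5 by the exact permutation test. The smallest p that this test can give with 3 samples a group is 0.1, so no ratio could have passed. The test therefore cannot decide whether a ratio changed.

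**Figure D3:**
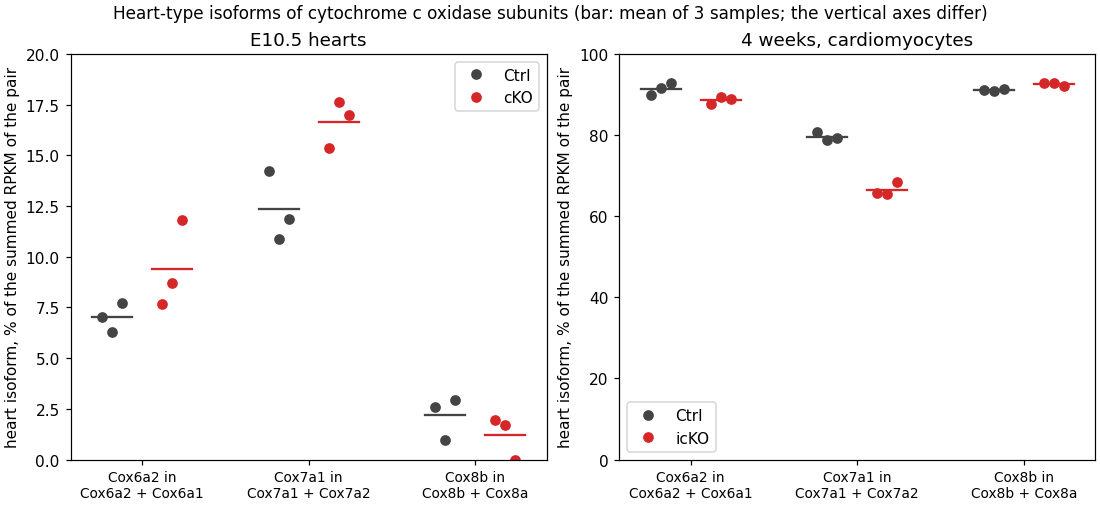
Share of the heart isoform in the summed RPKM of each isoform pair, in percent, for each sample (points) with the mean of 3 samples (bar), in E10.5 hearts (left, axis to 20%) and 4-week cardiomyocytes (right, axis to 100%). At 4 weeks the Cox7a1 share drops from 78.7% to 80.7% in Ctrl to 65.4% to 68.3% in icKO samples, while at E10.5 the Cox7a1 points of cKO hearts lie above those of Ctrl hearts.

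At E10.5 the ratios of the first 2 pairs had the opposite sign of change, a difference between stages that was not tested on the ratios. Cox7a1 made up 10.9% to 14.2% of its pair in Ctrl and 15.4% to 17.6% in cKO hearts, a log2 ratio change of 0.51 (exact permutation p = 0.1). Cox6a2 made up 6.29% to 7.70% in Ctrl and 7.66% to 11.8% in cKO hearts, so the groups overlapped, with a change of 0.44 (exact permutation p = 0.2). Cox8b was at 4.01, 1.22 and 4.12 RPKM in Ctrl and 2.05, 1.89 and 0 RPKM in cKO hearts. A single cKO sample was listed at 0, where 3 reads would give 0.416 to 0.607 RPKM over the E10.5 libraries, and the change of the ratio, -1.57, rests on that sample (exact permutation p = 0.5).

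At E10.5, 53 of the 56 genes were tested, 0 fell and 1 rose. Over all 10885 genes, 3.45% fell and 0.864% rose. With the log2 limit of 1, 0.542% of all genes fell and 0.239% rose, and 0 and 1 of the 53 did. At an unadjusted p under 0.05, limma gave 18 of the 53 lower and 1 higher, against 19.2% and 4.39% of all genes. In all, 46 of 53 log2 fold changes were below 0, and the median was -0.29 against -0.13 over all genes, of which 68.6% were below 0. Under quantile normalization 32 of the 53 were below 0, with a median of -0.05, and with the 20 most abundant genes left out of the scaling 39 were, with a median of -0.12. Median-ratio scaling gave 4 lower calls, Sdhb, Uqcrc2, Cox7c and Atp5g3, and 1 higher, against 2.56% lower and 2.49% higher over all genes. All 3 cKO samples were below all 3 Ctrl samples in 20 of the 53 (22.6% over all genes) and above them in 1 (6.50% over all genes).

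One Ctrl heart sample stood above the rest in these genes. Ctrl replicate 1 had the highest value of the 6 E10.5 samples in 41 of the 53 genes. It also had the highest summed RPKM over all genes, 197081 against 148074 to 172358 in the other samples. How often it was highest over all genes was not counted. Without this sample, 40 of the 53 log2 fold changes were below 0, and the median was -0.15 against -0.08 over all genes.

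The single higher call at E10.5 was Cox6b2, the testis isoform of subunit 6B. It was at 1.95, 2.32 and 1.75 RPKM in Ctrl and 5.68, 5.04 and 5.36 RPKM in cKO hearts. The groups stood apart at this low level, and the log2 fold change was 1.38 ± 0.16, adjusted p = 0.00454 (limma). With no filter on RPKM, where more genes are tested, the adjusted p was 0.0804 (limma) and Cox6b2 did not pass. Cox6b1, the ubiquitous isoform, was at 363, 232 and 295 RPKM in Ctrl and 232, 231 and 299 RPKM in cKO hearts. It overlapped between groups, with a log2 fold change of -0.21.

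In complex II, every cKO sample was below every Ctrl sample for 4 of 4 genes (22.6% over all genes tested), but none passed over all genes. Sdhb was at 111, 72.1 and 83.0 RPKM in Ctrl and 59.8, 54.4 and 56.2 RPKM in cKO hearts, a log2 fold change of -0.62 ± 0.16 with an adjusted p of 0.0578 (limma), and 0.0461 under median-ratio scaling. Sdha, Sdhc and Sdhd had log2 fold changes of -0.33, -0.33 and -0.40. Uqcrc2 was at 115, 84.4 and 91.6 RPKM in Ctrl and 69.0, 61.3 and 64.1 RPKM in cKO hearts, a log2 fold change of -0.57 ± 0.14 with an adjusted p of 0.0515 (limma). In complex V, Atp5g3 was at 295, 228 and 286 RPKM in Ctrl and 184, 169.7 and 191 RPKM in cKO hearts, a log2 fold change of -0.56 ± 0.15 with an adjusted p of 0.0663 (limma). Atp5a1, Atp5b and Atp5c1 had log2 fold changes of -0.29, -0.36 and -0.37 and did not pass.

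Cox4i2, the isoform of subunit 4 known from lung and hypoxia, was at 2.89, 3.13 and 4.37 RPKM in Ctrl and 1.97, 1.80 and 2.01 RPKM in cKO hearts. Its groups did not overlap, and its log2 fold change of -0.79 ± 0.20 had an adjusted p of 0.0522 (limma). At the ends of the range stood Cox8b and Atp5s, with log2 fold changes of -1.91 and -0.75, and Cox6a2 and Cox19, with 0.27 and 0.24. None of these passed. The assembly genes of complex IV had a median log2 fold change of -0.12 at E10.5, and 0 of 10 were called. Of the 3 genes not tested, Cox8c was listed at 0 in all 6 samples, while Cox7b2 and Atp5l reached at most 0.573 and 0.739 RPKM.

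The change of the knockout effect between stages was then tested itself, as the 4-week difference minus the E10.5 difference, for the 51 genes tested at both. The effect was lower at 4 weeks for 10 and higher for 5 as deposited. Over all 8909 genes, 9.29% were lower and 59.4% higher. The median difference was 0.01 for the 51 genes and 0.69 for all genes. Under median-ratio scaling 35 were lower and 1 was higher, against 25.7% and 27.2% over all genes, and the medians were -0.67 and 0.02. Cox19 was the one that stayed higher, with a difference of 2.31 as deposited and 1.62 under median-ratio scaling. In Cox7a1, with a difference of -1.02, the 4-week log2 fold change was -0.81 and the E10.5 one 0.21.

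**Figure D4:**
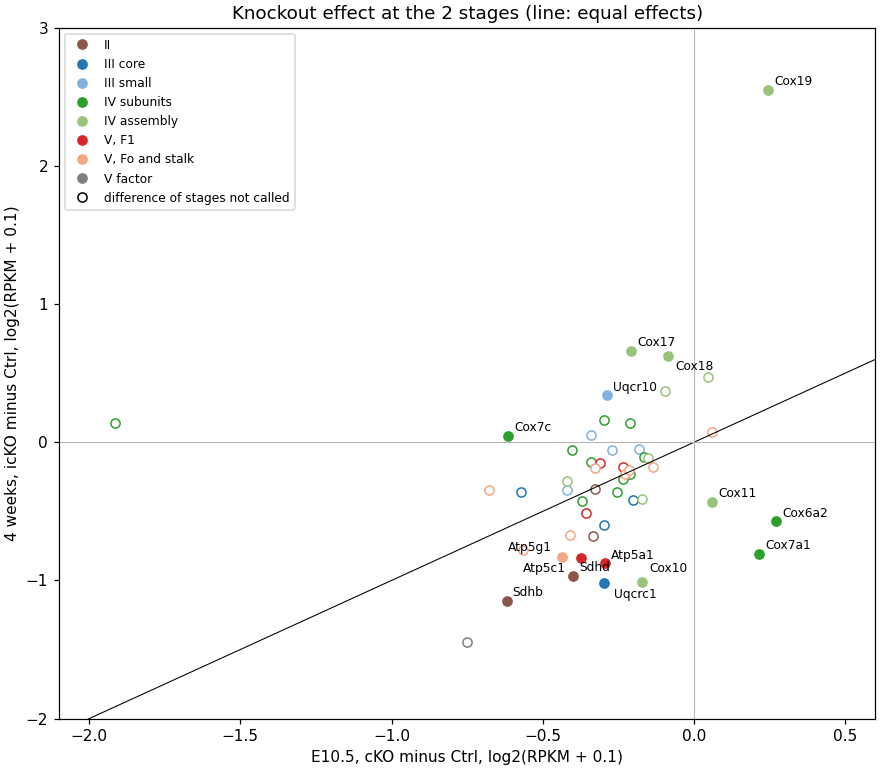
Knockout minus Ctrl difference in log2(RPKM + 0.1) at E10.5 (horizontal) and at 4 weeks (vertical) for the 51 genes tested at both stages, coloured by complex or class, with the line of equal effects. Filled and named points are the 15 genes whose effect differed between stages at an adjusted p under 0.05, of which 10 lie below the line and 5 above it, Cox19 the farthest.

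Other genes of the pathway were counted for comparison. Of 35 assembly and partner genes, 34 were listed and tested at 4 weeks, and 12 fell and 9 rose, with a median log2 fold change of -0.11. Over all genes, 18.1% fell and 60.6% rose. Under median-ratio scaling 27 of the 34 were lower and 2 higher, with a median of -0.67, against 34.6% lower and 33.6% higher over all genes. Lrpprc, which keeps mitochondrially encoded messages stable, was at 45.5, 42.9 and 39.6 RPKM in Ctrl and 16.5, 15.6 and 16.8 RPKM in icKO, a log2 fold change of -1.38 ± 0.08. Lyrm7, which serves the Rieske protein of complex III, had a log2 fold change of -1.47, and Coa7, an assembly factor of complex IV, of -2.17. Cycs, somatic cytochrome c, which carries electrons from complex III to complex IV, had a log2 fold change of -0.69. Pet100, an assembly factor of complex IV, and Uqcc3, one of complex III, rose with log2 fold changes of 1.16 and 0.92. These 6 were chosen after their values were seen. At E10.5, 1 of the 34 fell, Lrpprc, with a log2 fold change of -0.47 and an adjusted p of 0.0498 (limma), and 0 rose.

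The same counts were taken for complex I and the mitochondrial ribosome. Over all genes at 4 weeks, 18.1% fell and 60.6% rose as deposited, and 34.6% were lower and 33.6% higher under median-ratio scaling. Of 36 complex I genes tested at 4 weeks, 18 fell and 2 rose, with a median log2 fold change of -0.19, and under median-ratio scaling 34 were lower and 0 higher, with a median of -0.75. Of 78 mitochondrial ribosome genes, 26 fell and 29 rose as deposited, with a median of 0.11, while under median-ratio scaling 53 were lower and 10 higher, with a median of -0.46, so that their direction depends on the scaling. At E10.5, 1 of 36 and 8 of 78 fell and none rose, against 3.45% lower and 0.864% higher over all genes. The difference between these lists and complexes II to V was not tested.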

How the data were processed

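RNA-seq of 6 samples of E10.5 hearts and 6 samples of isolated adult cardiomyocytes was analysed from 1 deposited table a stage. Per the labels, the submitters' processing notes name cutadapt 2.6, STAR 2.5.3a, HOMER 4.11.1 and DESeq2 1.12.4 with the mm10 build. The authors deposited RPKM per gene and sample, unfiltered. The counting annotation is not given in the sources used here. The tables also hold the authors' mean RPKM, log2 fold change and FDR, which were not used. In the E10.5 table the knockout columns carry the name icKO, where the labels write cKO.

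The tables hold RPKM and no counts, so limma 3.58.1 (R 4.3.3; lmFit, eBayes with trend) was fitted on log2(RPKM + 0.1) of genes with mean RPKM above 1, separately per stage, with a contrast over all 12 samples for the difference of stages. Fold changes are on this scale, which understates those of low genes. Isoform ratios were compared by an exact two-sided permutation test. Depth was estimated as the read number at which low RPKM of genes with a single annotated transcript lay nearest to whole reads. Per library, 66.6% to 75.3% of these low values came out whole to within 0.1, so reads were not recovered for a count test. The fits and the depth estimate were tested on simulated data. Alternatives were other pseudocounts (1 and 0.01), a mean RPKM above 5 or no filter, 3 other scalings (quantile, median-ratio, and one that leaves out the 20 most abundant genes), eBayes with no trend, a replicate block and the loss of each sample in turn.

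Members and gene lists were chosen with earlier results of these data known. The classes within complexes (core and small subunits, head, ring and assembly genes) were set after values had been seen and carry no test. Genes named are those of complex II, the core of complex III, the Cox isoforms with Cox5a and Cox5b, the catalytic and ring genes of complex V and the 3 highest and lowest log2 fold changes a stage. Every other gene named was picked with its values known. Promoters came from RefSeq (GRCm38.p6), and gene positions from GENCODE M21. Python 3.11.15, pandas 2.3.3, numpy 2.4.6, scipy 1.17.1 and matplotlib were used for summaries.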

Additional observations from a re-analysis of the deposited data

Results flagged for a closer look

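The knockout effect of 15 genes differed between stages by the limma contrast of the 4-week and E10.5 differences, with adjusted p under 0.05. The effect was lower at 4 weeks for Cox7a1, with a difference of log2 fold changes of -1.02, Cox6a2 (-0.84), Cox10 (-0.84), Uqcrc1 (-0.72), Atp5a1 (-0.58), Sdhd (-0.57), Sdhb (-0.53), Cox11 (-0.49), Atp5c1 (-0.46) and Atp5g1 (-0.40). It was higher for Uqcr10 (0.63), Cox7c (0.66), Cox18 (0.71), Cox17 (0.87) and Cox19 (2.31). Under median-ratio scaling the first 10 and Cox19 passed again, while Uqcr10, Cox7c, Cox18 and Cox17 did not (adjusted p of 0.695, 0.903, 0.903 and 0.445 by limma), and Uqcr10 and Cox7c changed sign to -0.060 and -0.023. Stage, Cre line, age and kind of sample cannot be told apart in this difference.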

How the results depend on the processing

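Pseudocounts of 1 and 0.01 and eBayes without a trend left the counts of calls at each stage and for the difference of stages within 1.5 times, and so did the replicate block at each stage. The block was not fitted for the difference of stages. With mean RPKM above 5, the E10.5 counts were 4 lower and 0 higher, and with no filter 0 higher. The lower count at E10.5 was 4 under median-ratio scaling, 2 under quantile normalization and 4 without the 20 most abundant genes. At 4 weeks, 47 were lower and 1 higher under median-ratio scaling and 13 higher under quantile normalization, and lower calls beyond a log2 of 1 numbered 16 under median-ratio scaling and 10 without the 20 most abundant genes. For the difference of stages, lower calls were 5 with no filter, 35 under median-ratio scaling, 17 under quantile normalization and 25 with the 20 most abundant genes left out of the scaling, and higher calls 1, 9 and 2 under these scalings. The cause was not tested, except that Cox6b2 has a mean RPKM under 5 and so is not tested at that limit.

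Directions turned for single genes. At E10.5, quantile normalization took 14 of the 53 genes to above 0, namely Uqcrfs1 (0.017), Cox4i1 (0.10), Cox6a1 (0.11), Cox6b1 (0.10), Cox7a2 (0.0099), Cox5a (0.022) and Cox5b (0.0021), and Uqcr11, Cox16, Cox18, Atp5d, Atp5h, Atp5j2 and Atp5o with at most 0.18. Leaving the 20 most abundant genes out of the scaling turned 7, Cox6a1 (0.011), Cox10, Cox15, Cox16, Cox18, Cox20 and Atp5j2, to at most 0.084, and median-ratio scaling turned Cox16 and Cox18 (0.025 and 0.033). At 4 weeks, quantile normalization turned 12 of the 52, Cox4i1 (0.68), Atp5b (0.72), Uqcrb (0.22), Uqcr11 (0.26), Cox6c (0.20), Atp5d (0.11), Atp5e (0.14), Atp5h, Atp5j, Atp5j2 and Atp5o (0.066 to 0.090) and, to below 0, Cox16 (-0.19). Median-ratio scaling turned 9, Uqcrh, Uqcr10, Cox6b1 (-0.43), Cox7a2 (-0.40), Cox7c, Cox8b (-0.42), Cox14, Cox16 and Atp5k, to between -0.52 and -0.090. Of these, Cox6b1 (-0.11), Cox7a2 (-0.080), Cox8b (-0.10), Uqcrh, Cox7c and Atp5k also turned without the 20 most abundant genes. With no filter, 22 of the 31 lower calls at 4 weeks remained, and 26 with no trend.

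Leaving out each sample gave 25 to 33 lower and 5 to 7 higher calls at 4 weeks, 2 to 5 lower beyond 1 (2 without Ctrl replicate 2 or icKO replicate 1), and 0 to 2 lower with 1 higher at E10.5 (2 without Ctrl replicate 2, 1 without cKO replicate 3). For the difference of stages it gave 6 to 13 lower (6 without E10.5 Ctrl replicate 3, 4-week Ctrl replicate 3 or icKO replicate 1) and 4 to 11 higher (11 without E10.5 Ctrl replicate 2). Isoform ratio changes ranged at 4 weeks from -0.60 to -0.34 for Cox6a2, -1.03 to -0.92 for Cox7a1 and 0.26 to 0.33 for Cox8b, and at E10.5 from 0.24 to 0.58, 0.42 to 0.64 and -2.35 to -0.12. At least 1 of these omissions turned the log2 fold change of 12 genes at E10.5 and of 4 at 4 weeks. At E10.5, 6 turned without Ctrl replicate 1 and 4 without Ctrl replicate 2, among them Cox6a2 and Cox7a1, at -0.023 and -0.020 (ranges up to 0.49 and 0.53). At 4 weeks these were Cox6a1, at 0.029 without Ctrl replicate 1 (range from -0.19), Uqcr11, Cox7c and Atp5k. The lower call ended in at least 1 omission for 7 of the 31 genes, Cox4i1, Cox7a2l, Cox11, Atp5h, Atp5j, Atp5j2 and Atp5o. Replicate numbers are shared between groups only as names. Same-numbered samples had correlations of -0.0698 to 0.101 at E10.5 and 0.0433 to 0.153 at 4 weeks, and the replicate block gave 26 lower and 6 higher calls at 4 weeks and 0 lower and 1 higher at E10.5.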
